A study of Rattus norvegicus with 24 samples.

Results

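Ribosome-protected fragments from the liver of 3 young rats were compared with those from the brain of the same 3 animals, to describe how each organ divides its ribosomes over transcripts. The members are the 6 ribosome profiling libraries whose description labels read young liver or young brain, out of 24 libraries in the series, and all 22938 listed transcripts. Liver and brain libraries were paired by the animal code in their titles. The rats were 6 months old, and the labels used here give no strain, sex, diet or treatment. The series also holds RNA-seq of total RNA from the same organs and animals, and both assays in 3 rats aged 24 months; those libraries served here as side measurements. Each library came from homogenised tissue, so every value is a mixture over cell types. In such bulk samples fewer cells of a type and less RNA per cell cannot be told apart.

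In ribosome profiling, RNase I digests the mRNA that ribosomes do not cover, and the protected pieces, called footprints, are sequenced and counted per transcript. A transcript's share of all footprints therefore estimates the share of the organ's translating ribosomes that it occupies, which grows with the number of its mRNA copies, with the ribosomes on each copy and with the length of its reading frame. Liver parenchyma is known for making and secreting most plasma proteins. Brain holds many neuronal and glial cell types that express large and varied sets of genes. The files identify transcripts by Ensembl identifier alone, and 0 of the 22938 identifiers matched the RefSeq gene table at hand, so gene names, functions and sequences are not stated and the organ labels could not be checked against marker genes. The libraries' own profiles did separate by organ. Footprints of each library correlated with RNA-seq of its labelled organ at Pearson's r of 0.869 to 0.925 over log2(CPM + 0.5) of 13774 transcripts, and with the other organ at no more than 0.268, where CPM is the count after scaling a library's total to 1000000. In each of the 6 libraries the best match was the RNA-seq library of the same organ and animal.

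Library totals ran from 5652238 to 12932497 counts in brain and from 11839887 to 17584871 in liver. Footprint profiles correlated at 0.974 to 0.983 among brain libraries, at 0.98 to 0.991 among liver libraries and at 0.252 to 0.274 between the organs. The 3 animals of an organ differed from each other by more than counting noise, with a chi-square per degree of freedom of at least 5.52 in brain and 15.7 in liver. The biological coefficient of variation fitted within an organ was 0.158 in brain and 0.213 in liver.

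Liver placed its ribosomes on far fewer transcripts than brain. The number of transcripts that together held 50% of the footprints was 51, 55 and 55 in the livers of animals 1, 2 and 3, and 747, 751 and 756 in their brains. The liver mean was 53.7 ± 2.31 and the brain mean 751 ± 4.51 (SD, n = 3), so the brain count was 14-fold higher. The groups lay far apart, and every animal showed the same order. With 3 libraries a group the exact two-sided permutation test cannot give a p under 0.1, and it gave p = 0.1 here. The same value was found for each measure of spread in this paragraph and the next. The effective number of transcripts, the exponential of the Shannon entropy of the shares, weighs all transcripts at once. It was 499.7, 572.5 and 559.1 in liver and 3792, 3796 and 3813 in brain, 6.99-fold higher in brain. Both contrasts were smaller per length. With counts divided by the length-like value of the files, which no header defines, over the 19554 transcripts where it is at least 50, 50% of the total lay on 95, 100 and 103 transcripts in liver and 661, 660 and 668 in brain, 6.67-fold more in brain. The effective number was then 4.32-fold higher in brain. In liver 90% of footprints lay on 2125 transcripts on average and in brain on 5404.

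**Figure D1:**
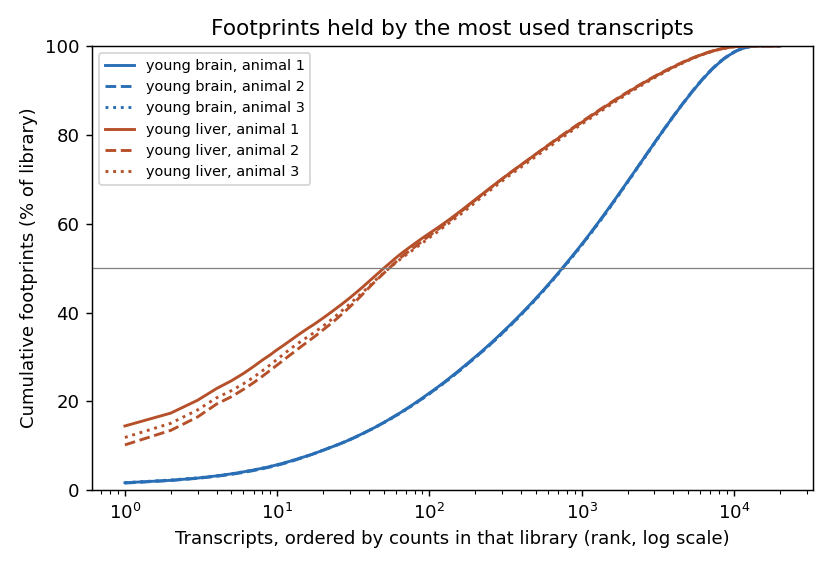
Cumulative share of footprints (vertical axis, % of the library's counts) against the rank of the transcript in its own library (horizontal axis, log scale), for the 3 young livers and the 3 young brains. The liver curves start at 10.2% to 14.5% and cross the 50% line by rank 55, and the brain curves start at 1.61% to 1.71% and cross it between ranks 747 and 756.

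The single most used transcript took 14.5%, 10.2% and 11.9% of the footprints in the 3 livers and 1.69%, 1.61% and 1.71% in the 3 brains. The 10 most used transcripts of each library held 29.8 ± 1.75% in liver and 5.70 ± 0.0772% in brain (SD, n = 3). Ranks 11 to 100 held 27.6 ± 1.47% and 16.1 ± 0.113%. Beyond rank 100 the order turned. Ranks 101 to 1000 held 25.4 ± 0.367% in liver and 33.5 ± 0.0344% in brain, ranks 1001 to 5000 held 14.1 ± 0.198% and 33.3 ± 0.125%, and all later ranks held 3.20 ± 0.0797% and 11.45 ± 0.0642%. In each band the 3 livers and the 3 brains did not overlap. The spread between animals was greatest among the most used liver transcripts and small in every brain band.

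Fewer transcripts carried any footprint in liver than in brain. After each library was thinned at random to the 5652238 counts of the shallowest, 12743, 12798 and 12757 transcripts had at least 1 footprint in liver, against 14942, 14470 and 14917 in brain. With a minimum of 10 footprints the numbers were 9974, 9850 and 9960 in liver and 12811, 12726 and 12782 in brain. Livers were lower in every animal on both counts (p = 0.1 for both in the exact permutation test). Equal totals do not give a typical transcript equal counts, since a few transcripts took much of each liver total. These numbers are therefore not separate from the concentration described above.

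RNA-seq of the same animals showed the same order of the organs. In liver RNA-seq 50% of the counts lay on 68, 97 and 89 transcripts in animals 1, 2 and 3, more in each animal than the 51, 55 and 55 of its footprints. In brain RNA-seq the numbers were 898, 917 and 923, again above the footprint numbers in each animal. The 10 most used transcripts were ranked within each library, so they need not be the same in both assays. In liver they took 28.8%, 24.7% and 26.6% of RNA-seq counts and 31.6%, 28.2% and 29.5% of footprints. Brain went the other way at this end of the list, with 7.46%, 6.44% and 6.32% of RNA-seq counts and 5.74%, 5.61% and 5.75% of footprints on the 10 most used of each library.

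Most transcripts differed in footprints between the organs. Of 13774 transcripts with enough counts to test, 4429 were higher in liver and 5817 higher in brain (edgeR quasi-likelihood test with the animal as a block, Benjamini-Hochberg adjusted p under 0.05). These are 32.2% and 42.2% of the transcripts tested, 74.4% together, and 3528 transcripts did not pass. The counts include transcripts with 0 counts in the other organ, 159 of the 4429 and 1109 of the 5817. Such transcripts passed the count filter through their own organ alone, so their calls were bound to follow and support nothing. More of them are brain calls, so part of the excess of brain calls over liver calls comes from them. The organ difference had the same sign in all 3 animals for 10223 of the 10246 called transcripts. The calls came from a test on these same libraries, which selects for a shared sign, so this count is a description. In 79.6% of tested transcripts the 3 liver and the 3 brain libraries did not overlap. The median log2 fold change was 1.75 among transcripts higher in liver and -2.94 among those higher in brain, against -0.22 over all tested. With transcripts at 0 counts in an organ set to the lower bound that 3 counts allow, the brain median was -2.92 and the liver median stayed at 1.75. Both medians still include these transcripts, which are more numerous on the brain side. They do not show which calls were larger without them. Against a margin of 2-fold rather than 0, 2642 transcripts (19.2%) were higher in liver and 4238 (30.8%) higher in brain. Together 49.9% of tested transcripts passed the margin. The margin counts also include transcripts at 0 counts in the other organ.

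These folds depend on what is held equal between organs. Shares must sum to 100%, and a few transcripts filled much of the liver libraries. The fold changes above were scaled by the trimmed mean of M values (TMM), which holds the typical transcript equal, and that scaling raised liver against brain by 1.40 on the log2 scale. With shares of the library's counts compared directly, the median of all transcripts was -1.62, and 1953 transcripts were higher in liver and 9875 higher in brain. Of the transcripts called higher in liver under TMM, 1007 were called higher in brain by share. Under TMM scaling 43.2% of the calls were higher in liver, and by share 16.5%. Another choice that moved this split was the removal of each library's trend with the length-like value of the files, which gave 5615 higher in liver, 53.3% of the calls, and 4913 higher in brain. Log2 fold changes below are under TMM scaling, and shares and CPM are of the library's counts.

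**Figure D2:**
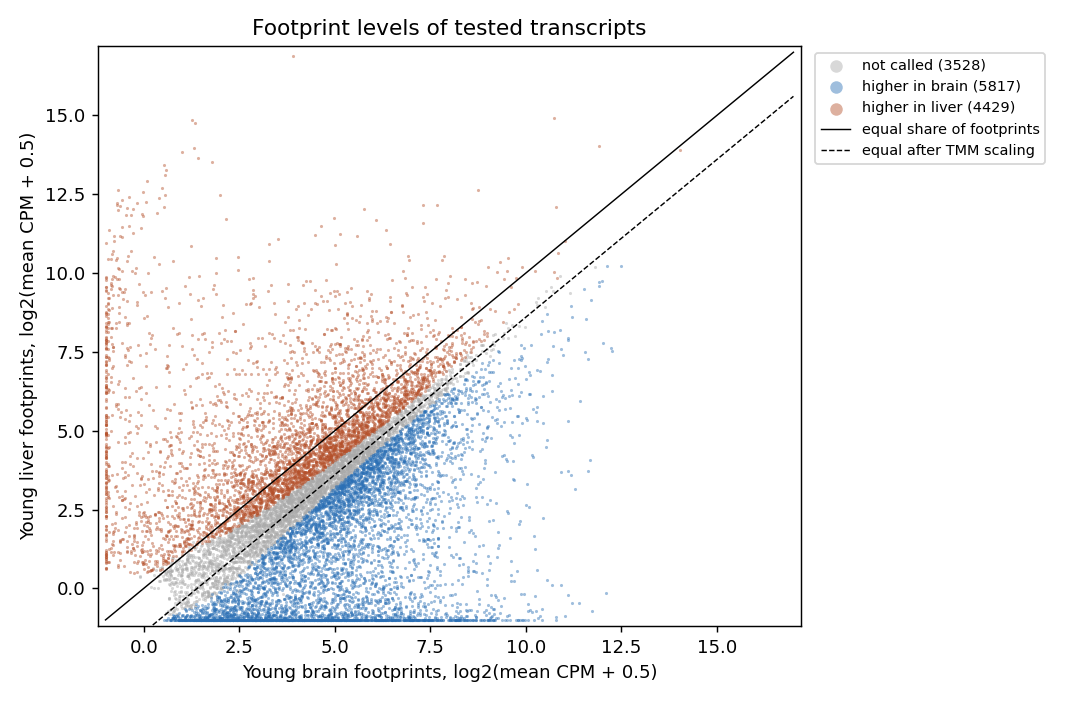
Mean footprint level of each of the 13774 tested transcripts in young brain (horizontal axis) and young liver (vertical axis), both as log2(mean CPM + 0.5) over 3 libraries, coloured by the call. The solid line marks equal shares and the dashed line, 1.40 lower, equality under TMM scaling, which runs through the 3528 grey transcripts that were not called.

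The called transcripts were sorted by the ratio of the 2 TMM-scaled organ means, and the footprints of each class were added up. By share, a given fold on the liver side is smaller and one on the brain side larger. The sizes of the classes and the footprints they hold therefore depend on the scaling. Transcripts more than 100-fold higher in liver numbered 467, and they held 56.05%, 55.17% and 54.77% of liver footprints against 0.0857%, 0.0786% and 0.0839% of brain footprints. Transcripts more than 100-fold higher in brain were more numerous, 922, and held less: 17.31%, 17.35% and 17.55% of brain footprints and 0.0101%, 0.00979% and 0.00956% of liver footprints. Of the 922 brain transcripts 519 had 0 counts in all 3 livers, and of the 467 liver transcripts 132 had 0 counts in all 3 brains. These passed the count filter through 1 organ alone. Only 18 of the 922 averaged 1 CPM or more in liver, and 112 of the 467 did in brain. Most members of both classes were thus low in the other organ and passed the filter mainly through their own. Classes of 10-fold to 100-fold held 712 transcripts and 15.25 ± 0.275% of liver footprints on the liver side, and 1684 transcripts and 11.9 ± 0.13% of brain footprints on the brain side (SD, n = 3). In all, 1179 transcripts at least 10-fold higher in liver carried 70.6 ± 0.617% of its footprints, and 2606 transcripts at least 10-fold higher in brain carried 29.3 ± 0.0711% of its footprints. The 5665 transcripts that were not called or were called at under 2-fold carried 13.7 ± 0.457% of liver and 35.8 ± 0.148% of brain footprints. The last pair of shares differs by about the factor that TMM scaling sets between the organs. All these shares describe the libraries that set the classes and have no test.

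The same classes were then read in the 3 rats aged 24 months, which had no part in setting them. The transcripts more than 100-fold higher in young liver held 55.9%, 57.72% and 52.95% of footprints in the 3 old livers, and those more than 100-fold higher in young brain held 16.6%, 15.9% and 16.6% in the 3 old brains. In old brain the liver class held 0.213%, 3.22% and 0.175%. All 3 lay above the 0.0786% to 0.0857% of the young brains, whose low values chose the class. The library of old animal 2 stood furthest apart. What put liver-class transcripts into the old brain libraries was not tested. The brain class held 0.0149% to 0.0245% of old liver footprints, beside 0.00956% to 0.0101% in the young livers, whose low values chose the class.

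**Figure D3:**
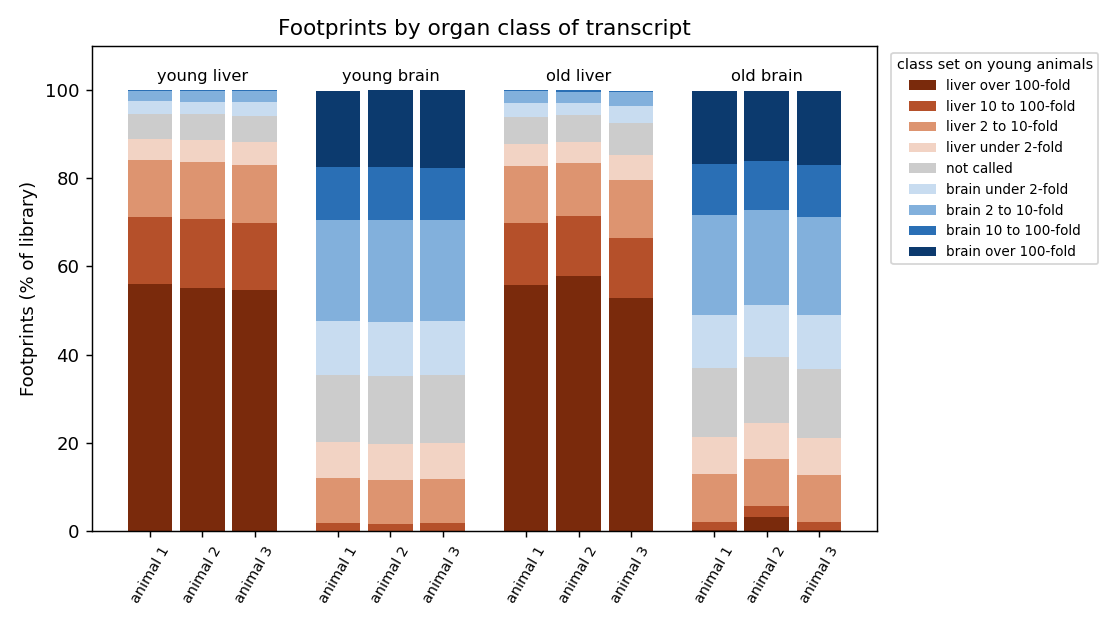
Share of footprints (vertical axis, % of the library) by organ class of the transcript, as stacked bars for each of the 12 ribosome profiling libraries; the classes were set on the young animals. The darkest red class of 467 transcripts fills 52.95% to 57.72% of each liver bar, and the darkest blue class of 922 transcripts fills 15.9% to 17.55% of each brain bar.

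Few of the most used transcripts were shared. Of the 10 with the highest mean share in each organ 2 were common to both lists, of the 100 highest 9 were, and of the 1000 highest 291 were (29.1% of either list). The 100 most used liver transcripts held 57.1 ± 0.398% of liver footprints and 4.78 ± 0.0371% of brain footprints (SD, n = 3). The 100 most used brain transcripts held 21.8 ± 0.1% of brain footprints and 9.43 ± 0.177% of liver footprints. On lists of this length the leading brain transcripts held more of liver than the leading liver transcripts held of brain, and on longer lists the order turned. The 500 most used brain transcripts held 14.56% of liver and the 500 most used liver transcripts 15.57% of brain, and for the 1000 most used the values were 18.87% and 26.16%. In brain the median rank of the 100 liver transcripts was 13098.5, and 49 of them were under 1 CPM. In liver the median rank of the 100 brain transcripts was 871, and 21 were under 1 CPM. Of the 10 most used liver transcripts 3 were among the 1000 most used in brain, and the other 7 stood at 1.49 to 14.6 CPM there. Among the 10 most used brain transcripts 9 were among the 1000 most used in liver, and the other, sixth in brain at 0.438% of footprints, stood at 0.406 CPM in liver. These lists were ranked on the same libraries and are a description.

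The transcript that led every brain library was among the 10 most used in liver as well. It took 1.69%, 1.61% and 1.71% of footprints in the 3 brains and 1.65%, 1.45% and 1.48% in the 3 livers, where it was seventh by mean share. Its mean share was higher in brain, 1.67 ± 0.0524% against 1.52 ± 0.106% (SD, n = 3), and brain was higher within each animal, but the liver of animal 1 lay above the brain of animal 2. On the TMM scale the same transcript was higher in liver (log2 fold change 1.26, SE 0.26, edgeR adjusted p = 0.00137). The shares of the organs overlapped, so this call rests on the scaling. The other transcript on both lists took 0.368%, 0.411% and 0.387% in brain and 1.74%, 1.65% and 1.61% in liver, and was higher in liver by either measure (log2 fold change 3.50, SE 0.274, adjusted p = 1.14e-06).

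A fixed rule named the 2 transcripts with the highest level in each organ among those past the 2-fold margin, and the 2 most abundant transcripts at similar scaled levels in both. ENSRNOT00000003921 was the most used liver transcript. It took 14.5%, 10.2% and 11.9% of footprints in the livers of animals 1, 2 and 3 and 10.5, 6.9 and 26.4 CPM in their brains, from 136, 39 and 253 counts. The organs were separated by 3 orders of magnitude or more in every animal, and the brain of animal 3 had the highest of the brain values. Its log2 fold change was 14.58 (SE 0.733, edgeR adjusted p = 3.88e-08), and its RNA-seq log2 fold change was 15.03 (SE 0.431). ENSRNOT00000012725 was second in every liver library, at 2.90%, 3.27% and 3.19%. Unlike the first it was also abundant in brain, at 2247, 1409 and 1488 CPM, ranks 29, 65 and 62. Its log2 fold change was 5.61 (SE 0.367, adjusted p = 2.84e-07).

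The 2 transcripts named for brain were also translated in liver. ENSRNOT00000006322 stood at 5063, 4680 and 4848 CPM in the brains of animals 1, 2 and 3 and at 164, 193 and 193 CPM in their livers. Its share was 26.5-fold higher in brain, and on the TMM scale the log2 fold change was -3.33 (SE 0.192, edgeR adjusted p = 1.09e-07). ENSRNOT00000044459 stood at 4978, 4557 and 4755 CPM in brain and 175, 209 and 204 CPM in liver (log2 fold change -3.21, SE 0.192, adjusted p = 1.47e-07). The organs did not overlap for either. The counts of these transcripts kept a ratio of 1.02 to 1.03 in brain and 0.923 to 0.947 in liver. Their length-like values were 432 and 434. Whether they share reads under the authors' counting is not given in the sources used here, so they may not be separate observations.

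The transcripts named for both organs show the size of the scaling. ENSRNOT00000066885 stood at 3440, 3744 and 3635 CPM in brain and at 1317, 1144 and 1018 CPM in liver, a share 3.11-fold higher in brain. On the TMM scale its log2 fold change was -0.25 (SE 0.184, edgeR adjusted p = 0.247). ENSRNOT00000022095 stood at 1765, 2023 and 1948 CPM in brain and 1129, 909 and 857 CPM in liver, with a log2 fold change of 0.40 (SE 0.18, adjusted p = 0.0669) on the TMM scale and -0.9956 (adjusted p = 0.000241) by share. Neither passed in the fit with the animal as a block, which does not show that they were equal. ENSRNOT00000022095 passed on the same TMM scale without the replicate block (log2 fold change 0.41, edgeR adjusted p = 0.0324) and in limma-voom (adjusted p = 0.0147).

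**Figure D4:**
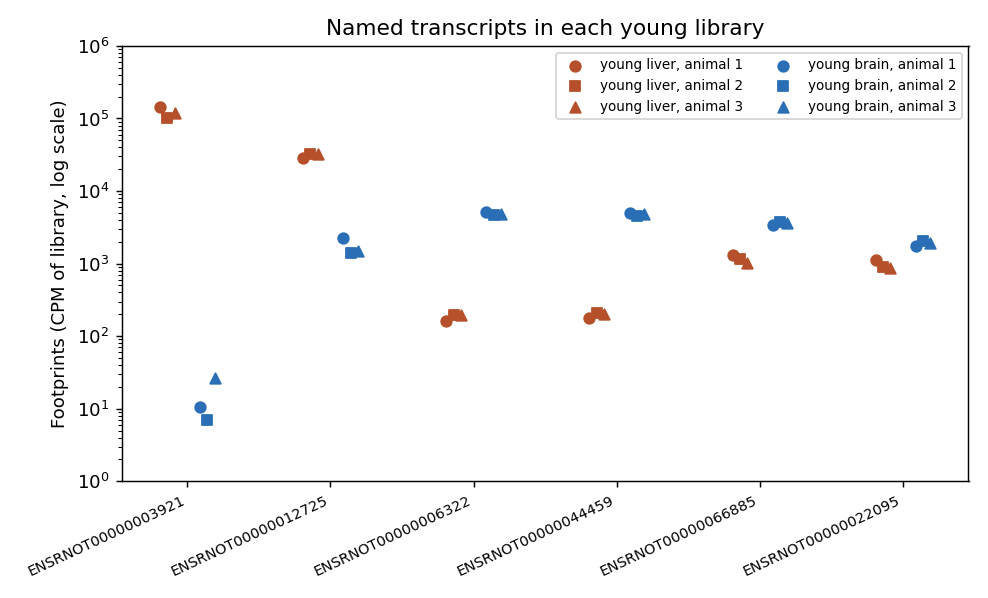
Footprint level (vertical axis, CPM of the library, log scale) of the 6 named transcripts in each young liver and brain library; each point is 1 library and its shape gives the animal. The livers of ENSRNOT00000003921 lie at 102100 CPM or more and its brains at 26.4 CPM or less, and the other 5 transcripts lie at 164 CPM or more in all 6 libraries.

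Many transcripts had footprints in only 1 of the organs at this depth. Among tested transcripts 1109 had 0 counts in all 3 livers, over 44600638 liver counts, and 159 had 0 counts in all 3 brains, over 28179892. A few transcripts took much of the liver total, so these totals do not compare the chance of a count. On the TMM scale 3 counts stood for 0.109 CPM in liver and 0.06595 CPM in brain. A typical transcript thus had less chance of a count in liver, despite its higher total. A transcript that is at 0 in an organ passed the count filter through the other organ alone, so its call was bound to follow and supports nothing. Of the 1109, 654 were at 10 CPM or more in brain and 167 at 100 CPM or more, with the highest at 1781 CPM. On the TMM scale, against a floor of 3 counts over the liver libraries, that transcript was at least 10070-fold higher in brain. Of the 159, 107 were at 10 CPM or more in liver and 44 at 100 CPM or more. The highest, at 1988 CPM, was at least 48780-fold higher in liver on the same scale. TMM scaling raised liver against brain by 1.40 on the log2 scale. By share the liver bound is therefore smaller and the brain bound larger, so the order of the 2 bounds rests on the scaling. These floors cover counting error only. RNA-seq had 0 counts in all 3 livers for 702 of the 1109, and in all 3 brains for 62 of the 159.

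Liver-typical transcripts were present in the brain libraries at trace level. The 50 transcripts with the highest liver RNA-seq level among those over 10-fold higher in liver by RNA-seq were chosen without the footprints. Their median level was 4308, 5046 and 4913 CPM in liver footprints and 0.696, 0.973 and 1.41 CPM in the brain footprints of animals 1, 2 and 3. The brain of animal 3 was highest and that of animal 1 lowest. Each had 1 of the 50 at 0 counts, against 12 of 50 in the shallower brain library of animal 2. The 50 matching brain transcripts had a median of 1379, 1331 and 1369 CPM in brain footprints and 4.35, 2.93 and 2.28 CPM in liver. All 50 of the liver set were called higher in liver and all 50 of the brain set higher in brain, where 32.2% and 42.2% of all tested transcripts were; the sets had been chosen for a large RNA-seq difference in the same animals. The median footprint log2 fold change was 14.40 for the liver set and -6.49 for the brain set, beside RNA-seq medians of 15.05 and -5.94. At the median, transcripts of the liver set stood in brain at 0.00875% to 0.017% of their liver level, and those of the brain set stood in liver at 0.373% to 0.483% of their brain level. Summed, the liver set still held 0.865% to 0.921% of brain footprints, led by a transcript at 3678 to 4109 CPM. The largest liver folds rest on the low brain counts, whose source was not tested.

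The higher the level of a transcript, the more often it differed. Transcripts were ranked by the higher of their 2 mean shares. Of the 100 highest 98.0% were called, 64 higher in liver and 34 in brain, with a median absolute log2 fold change of 10.81. Of ranks 101 to 1000, 92.1% were called, 356 higher in liver and 473 in brain, with a median of 3.84. Of ranks 1001 to 5000, 83.2% were called with a median of 1.38, and in the 3774 lowest, 62.2% with a median of 1.56. Counts limit the test at low levels, and ranking by the higher organ favours transcripts that differ, so these shares describe the table only.

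Footprint and RNA-seq differences between the organs ran closely together. Log2 fold changes of 13422 transcripts with enough counts in each assay correlated at Pearson's r of 0.97 and Spearman's rho of 0.944, across transcripts, which are not independent, in libraries of the same animals. RNA-seq called 11675 of 14289 transcripts (81.7%), 5283 (37% of those tested) higher in liver and 6392 (44.7%) higher in brain. Of 4331 transcripts called higher in liver by footprints and tested in RNA-seq, 3862 were called higher in liver by RNA-seq too, 89.2%, and 63 were called higher in brain. Of 5701 called higher in brain by footprints, 5103 were also called by RNA-seq, 89.5%, and 145 were called the other way. The median absolute log2 fold change was 1.42 in footprints and 1.24 in RNA-seq.

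**Figure D5:**
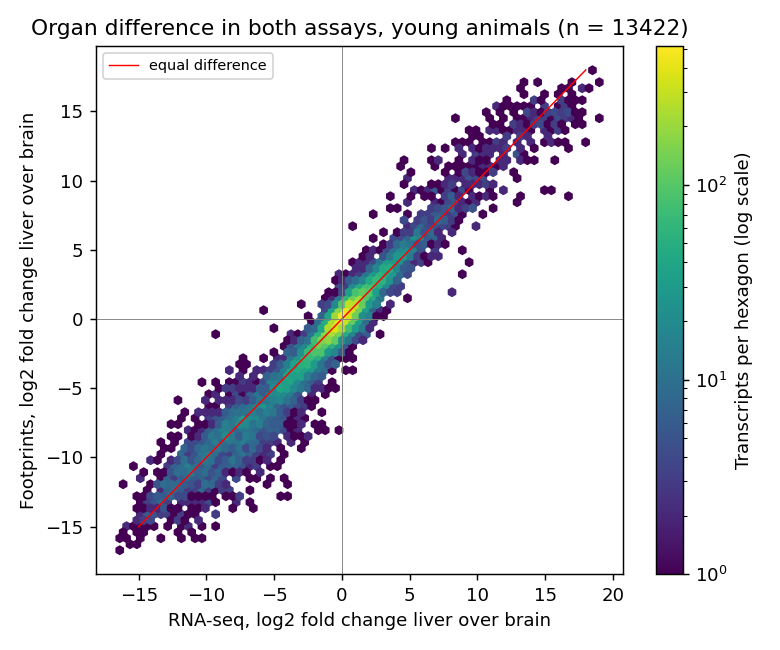
Log2 fold change of liver over brain in RNA-seq (horizontal axis) and in footprints (vertical axis) for 13422 transcripts tested in both, as hexagons coloured by the number of transcripts on a log scale. The transcripts follow the red line of equal difference over the whole range, and beyond about 5 in size the fitted values of transcripts with 0 counts in an organ depend on the prior count.

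A test of the difference between the assays asked where the organ contrast was not the same in footprints and RNA-seq. Of 14807 transcripts, 1423 (9.61%) had footprints shifted further toward liver than their RNA and 1724 (11.6%) further toward brain (edgeR interaction of organ and assay with the animal as a block, adjusted p under 0.05). The median shifts were 0.91 and -1.03 on the log2 scale. Without animal 2 the counts were 516 and 771, without animal 3 they were 650 and 874, and without animal 1 they were 1566 and 1700. Scaling by total counts gave 627 and 3083. None of the 6 named transcripts passed, with adjusted p from 0.0624 to 0.938.

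Among transcripts with more footprints in liver, shifts toward liver prevailed, and among those with more footprints in brain, shifts toward brain. Since the young footprints enter both the class and the shift, classes were also taken from the footprints of the old animals, chosen after seeing the data. The old classes remove only the noise that class and shift share. The shift is the footprint difference less the RNA-seq difference, so any class set on footprints favours shifts in its own direction. These classes therefore cannot decide whether the shifts follow the organ difference. Of 4000 transcripts higher in old liver, 21.3% shifted toward liver in the young animals and 5.48% toward brain. Of 5409 higher in old brain, 2.64% shifted toward liver and 19.1% toward brain. The young RNA-seq also enters the shift, with the opposite sign. With classes from it the liver class was even, 13% toward liver and 13.4% toward brain. The brain class had 6.72% toward liver and 11.7% toward brain. The pattern on the liver side was therefore not seen with RNA-seq classes.

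Brain-high transcripts had higher length-like values. The files give a whole number from -17 to 8007, median 349, which no header defines, for all but 3097 of the 22938 transcripts. The median was 397 for transcripts higher in liver, 469 for those higher in brain and 421.5 over all tested. The tested transcripts were split by this value into 4 groups of like size. In the group from 692 to 8007, 26.7% were higher in liver and 51.8% higher in brain, and in the group from 6 to 245 it was 34.9% and 34.5%. The group from 692 to 8007 held 36.6 ± 0.107% of footprints in brain and 31.7 ± 0.942% in liver, and the group from 6 to 245 held 16.85 ± 0.108% and 11.8 ± 0.219% (SD, n = 3). The group from 422 to 691 held 25.4 ± 0.0379% in brain and 34.9 ± 1.32% in liver, and ENSRNOT00000003921, at 589, lies in it. The 3 livers and 3 brains did not overlap in any of the 4 groups (p = 0.1 in each by the exact permutation test). Spearman's rho between level and length-like value, across 13774 transcripts, was 0.199 to 0.204 in brain footprints and 0.0393 to 0.0565 in liver footprints, and 0.347 to 0.362 and 0.218 to 0.221 in RNA-seq. The trend therefore separates both the organs and the assays, and its part in the counts of calls is seen in the split given above.

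Organ differences were also tested in the rats aged 24 months. Of 13910 transcripts tested, 4017 (28.9%) were higher in old liver and 5422 (39%) higher in old brain, 67.9% in all (edgeR, animal as a block, adjusted p under 0.05). Among transcripts tested at both ages, 3695 of the 4400 called higher in young liver (84%) and 5073 of the 5715 called higher in young brain (88.8%) were called the same way in old animals, and 0 were called the opposite way. Of the 467 transcripts more than 100-fold higher in young liver, the 465 tested at both ages had a median log2 fold change of 7.13 in old animals and 9.57 without old animal 2. For the 922 brain transcripts the old median was -10.27 for the 921 tested, and -10.10 without old animal 2. The young medians were 11.09 and -10.69 as fitted, and 9.82 and -8.34 with transcripts at 0 counts in the other organ set to the bound that 3 counts allow. The fitted values, young and old, depend on the prior count for such transcripts. ENSRNOT00000003921 stood at 322, 9366 and 168 CPM in the 3 old brains, all above the 26.4 CPM of the highest young brain, and at 17.7%, 18.8% and 12.5% of footprints in the old livers. ENSRNOT00000006322 stood at 5423, 5248 and 4712 CPM in old brain and 196, 166 and 251 CPM in old liver.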

How the data were processed

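The deposited files give whole-number counts per transcript for 1 library each, not normalised. Per the submitters' processing notes Bowtie 1.0.0.0, TopHat2 2.0.10, DESeq and build rn4 were used; the sources used here do not give the annotation, the counting rule or the treatment of multiply mapping reads. A second deposited column, a length-like value of other, undefined unit, entered only the length checks. From the counts, edgeR 4.0.16 (R 4.3.3) was run with a quasi-likelihood F test, robust fitting, TMM factors, a minimum count of 10 and minimum total of 15; the 2-fold margin used glmTreat. Standard errors were derived from the F statistic. Tests across transcripts were checked on simulated data that gave both organs the same mean profile apart from a small set of changed transcripts. The check therefore does not cover the composition difference between the organs. The animal was a block because titles give both organs the same animal code. Deviations from the organ means correlated at 0.0868, 0.0123 and 0.0337 between the organs of animals 1, 2 and 3. Between organs of different animals the values were -0.0771 to 0.0406, a range that includes those of animals 2 and 3. Fold classes used TMM-scaled group means with a floor of 3 counts over the group. Of 22938 transcripts, 6453 had 0 counts in the 6 libraries, and 46 of the 13822 with at least 50 counts had counts identical to another's. PCR reads carry no molecular identifiers. Named transcripts were those with an adjusted p under 0.05, past the 2-fold margin, averaging 0 or more in log2 CPM, without overlap between organs, and the 2 with the highest mean per organ were taken; 2 more had the highest minimum with an absolute log2 fold change under 0.5. The members, lists and rules were chosen with earlier results of these data known. Alternatives were no block, DESeq2 1.42.0, limma-voom (limma 3.58.1), other scalings and filters, equal depth, a length correction and leaving out each animal. Gene and marker lists were not run, since the identifiers had no names.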

Additional observations from a re-analysis of the deposited data

How the results depend on the processing

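Counts of transcripts called between the young organs stayed within 1.5 times of the values given under no block, limma-voom, DESeq2, median-ratio and upper-quartile factors, abundant transcripts left out of library sizes, both other count filters, equal depth and removal of the length trend. Without the animal as a replicate block 4539 transcripts were higher in liver and 5968 in brain, with 10167 of the 10246 calls shared in the same direction, and no count of calls moved by over 1.5 times. Total counts alone gave 1953 higher in liver and 9875 in brain, and 1424 and 7788 past the 2-fold margin. They gave 627 shifts toward liver and 3083 toward brain in the interaction of organ and assay, and turned the log2 fold change of ENSRNOT00000022095 to -0.9956, because the composition factor between the organs was left out. Leaving out an animal gave 3904 to 4530 calls higher in liver and 5354 to 5587 in brain, 516 to 1566 and 771 to 1700 interaction calls, and 3156 to 3874 and 4485 to 5147 calls in old animals. The lower interaction counts came without animal 2 or animal 3, not without animal 1, and the cause was not tested. ENSRNOT00000022095 passed the threshold without the block (adjusted p = 0.0324), in limma-voom (0.0147), with upper-quartile factors (0.0488), by total counts and with the length trend removed (0.00247). The ratios of liver to brain in effective number, top 10 share, transcripts for 50% of footprints and transcripts detected kept their direction under every alternative run for them. Counts divided by the length-like value moved the ratio for effective number from 0.1431 to 0.2317, and for transcripts that hold 50% from 0.07143 to 0.1498. Depth limits calls among transcripts near the count minimum.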
